A study of Mus musculus with 273 samples.

Results

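The microRNAs numbered miR-6896 to miR-7093 are a block of mouse hairpins that were named together and that lie almost wholly at the ends of introns. Every row of the count tables whose name carries a number in that range was taken, whatever its suffix, which gave 201 of 1226 hairpins. miRNA sequencing counted them in 78 libraries of right cortex, 46 of right striatum, 72 of hypothalamus and 77 of liver, all of wild-type male C57BL/6J mice, an inbred laboratory strain, aged 26 weeks. The mice were sampled at 3 h steps over 36 h, and zeitgeber time (ZT) is that time folded onto a day of 24 h. No mouse carried an engineered allele or a treatment in the labels used here. Groups of tissue and ZT held 2 to 12 libraries. Striatum had 7 ZT groups, with no library at ZT15 and 2 at ZT18, against 8 ZT groups in each other tissue. The labels do not say which libraries came from separate mice. They carry 79 codes that each stand at 1 time point, and 78 of them recur in 2 or more tissues. The p-values therefore measure the spread between these libraries.

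A miRNA is a short RNA that guides a silencing complex to messenger RNAs, mostly through its seed, bases 2 to 8 from its 5′ end. Most miRNAs are cut from long transcripts by the nuclear enzyme Drosha. A mirtron is different: its hairpin is a whole short intron, freed by splicing and debranching and then cut by Dicer. In a tailed mirtron only the 3′ end of the hairpin is set by the splice site, and the stretch of intron before the hairpin has to be removed. Such hairpins share their transcript with a protein-coding host gene, and so a member's level can follow where its host is transcribed. Host messenger RNA was not analysed here.

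Cortex libraries held 1164449 to 4980887 counts and striatum libraries 26341 to 4022070. Hypothalamus libraries held 1079380 to 3954710 and liver libraries 1988671 to 5236177. Values are given as CPM, the counts scaled to 1000000 per library. A count of 0 over a whole tissue allows up to 3 counts, or 0.0125 CPM in cortex, 0.0304 in striatum, 0.0181 in hypothalamus or 0.0131 in liver. Such limits cover counting error alone, as the labels name no molecular identifiers. The liver markers miR-122, miR-192, miR-194-2 and miR-802 summed to 248972 to 355733 CPM in liver and to at most 7510 CPM in any brain library. The 8 neuron markers summed to at least 1888 CPM in every brain library and to at most 12.2 CPM in liver, where 6 of the 8 had a median of 0. In all, 9 libraries stood apart, because their profile was far from the others of their tissue or nearest to another tissue. Among them, 2 libraries labelled cortex (ZT0 replicate 1 and ZT9 replicate 9) were nearest to striatum, and the library labelled striatum ZT21 replicate 3 was nearest to cortex. In these libraries the choroid plexus marker miR-204 stood at 41841, 6897 and 34862 CPM, in that order. With miR-211 it summed to a median of 4891 CPM in cortex (highest 41876) and 14561 in striatum (highest 104998). A choroid plexus part in these libraries was not tested. The library labelled striatum ZT9 replicate 6 held only 26341 counts.

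The block is marked by hairpins that end at a splice site. The first 4 shown are of its less common form: they fill their host intron from the first base to the last, so that each starts with the GU of the 5′ splice site and ends with the AG of the 3′ splice site. Those bases are in capitals. The sequences are RefSeq's (GRCm38.p6), written 5′ to 3′.
miR-6944 (chr13:55477681-55477776, minus strand, 96 bases, intron of Dbn1): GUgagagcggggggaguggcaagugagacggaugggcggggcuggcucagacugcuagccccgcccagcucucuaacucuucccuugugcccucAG
miR-7080 (chr8:123130106-123130172, plus strand, 67 bases, intron of Cpne7): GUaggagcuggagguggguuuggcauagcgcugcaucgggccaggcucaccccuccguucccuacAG
miR-7068 (chr8:72470016-72470089, minus strand, 74 bases, intron of Cherp): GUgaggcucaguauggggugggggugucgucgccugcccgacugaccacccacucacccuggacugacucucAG
miR-6958 (chr15:89185465-89185537, minus strand, 73 bases, intron of Dennd6b): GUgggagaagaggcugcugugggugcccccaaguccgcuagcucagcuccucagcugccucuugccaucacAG
miR-7080 is shown with miR-6944 and miR-7068 because these 3 carried much of the difference between brain regions described further on. In the next 2 hairpins only the AG at the 3′ end lies on a splice site, and intron sequence precedes the hairpin.
miR-7046 (chr7:24970010-24970075, minus strand, 66 bases, intron of Rabac1, 11 bases of intron before it): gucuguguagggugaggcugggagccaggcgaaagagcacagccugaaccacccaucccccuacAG
miR-6978 (chr17:57217172-57217228, minus strand, 57 bases, intron of C3, 37 bases before it): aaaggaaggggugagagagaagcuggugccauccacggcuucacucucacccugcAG

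The position seen in these 6 hairpins held for nearly the whole block. Of the 201 members, 15 filled an annotated GENCODE vM21 intron end to end, with both ends within 5 bases of the splice sites, and 14 of these matched it to the base. A further 173 had their 3′ end at the 3′ end of the intron, 172 of them to the base, behind a stretch of 7 to 36205 bases of intron (median 505). The remaining members were 4 with only the 5′ end at the intron's 5′ end, 8 that crossed a splice site and 1 inside an intron. All 201 members lay in protein-coding genes, 196 in number, and 28 hairpins also lay inside an exon of another transcript. Of the hairpins printed above, miR-7080, miR-7068 and miR-6958 were among these 28, and miR-6944 was not. Where transcripts differed, the intron that matched the most hairpin ends was taken. The filled and tailed forms made up 93.5% of the members. The same share was 0.599% of 501 placed hairpins numbered under 1000, 9.63% of 187 numbered from there to under 5000 and 6.95% of 302 numbered 5000 or more outside the block. The label of a mirtron-rich series therefore matched the annotation, although most members were of the tailed form.

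**Figure D1:**
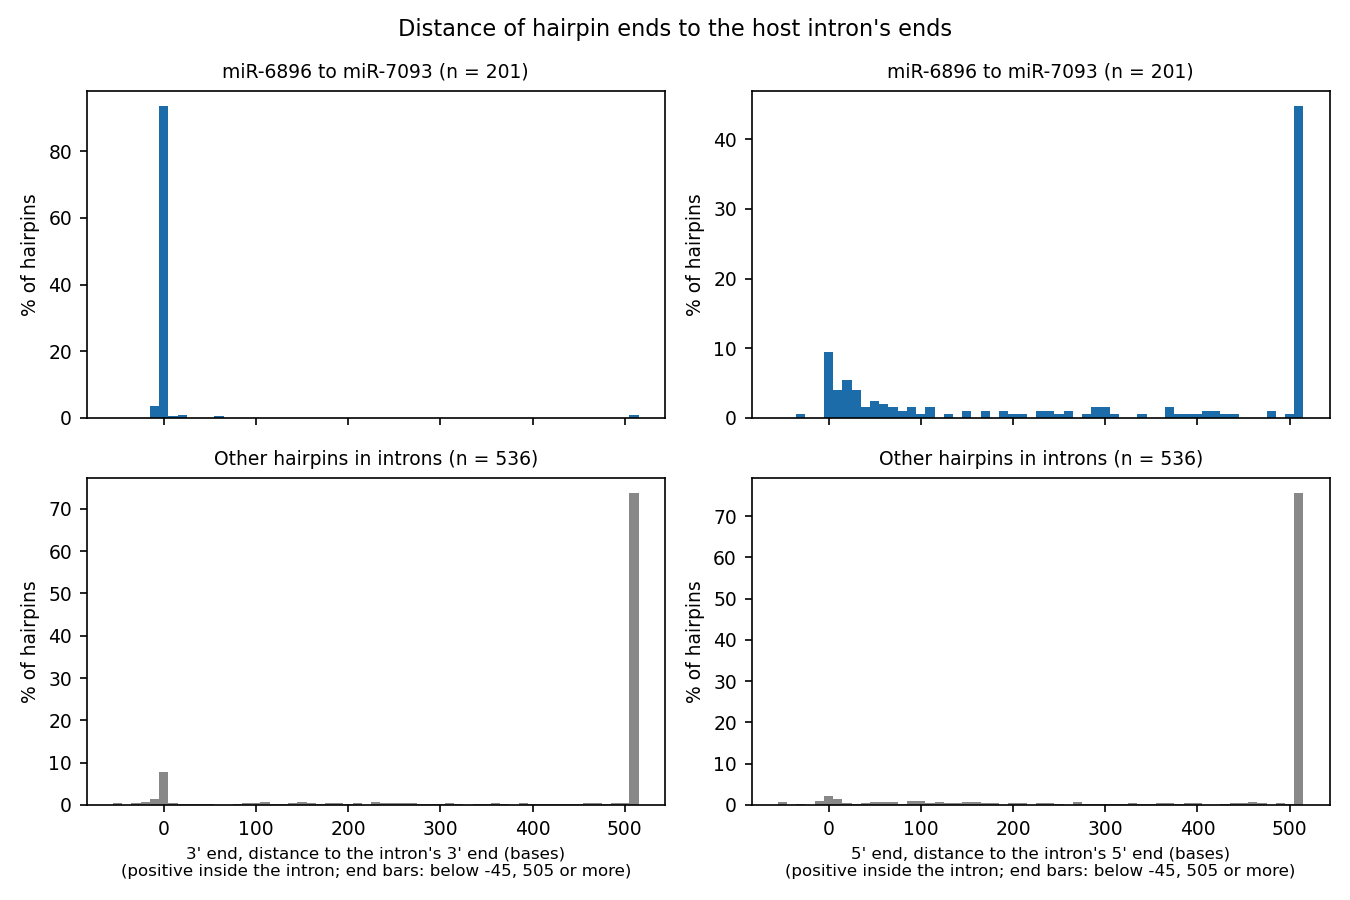
Distance in bases from hairpin ends to the ends of the host intron, as a percentage of hairpins, for the 201 members (blue) and for 536 other hairpins in introns (grey). In the left panels 93.5% of the members have their 3′ end within 5 bases of the intron's 3′ end. In the right panels their 5′ ends are spread, and the last bar gathers all longer distances.

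The letters of the hairpins differed from those of other miRNAs. A hairpin that ends at a 3′ splice site ends in its AG, so the share ending in AG restates the position. RefSeq gave a hairpin sequence for 180 members, and 167 of them (92.8%) ended in AG, against 8.63% of 811 other hairpins. The 3p arms ended in AG in 139 of 177 members with an annotated 3p arm and in 10.7% of 541 other 3p arms. The 3p arms were 71.9% ± 7.95 (SD, n = 177) pyrimidine, as the tract before a 3′ splice site is, against 53.7% ± 13.5 (n = 541) in other 3p arms. The 5p arms of the members held 44.2% ± 8.90 G, against 29.0% ± 10.9 in 537 other 5p arms. Both ranges overlap, and these are descriptions of the annotation, not of the reads, since a hairpin count joins both arms.

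Mature sequences existed for 185 members, with 352 distinct arms and 323 distinct seeds, so most members had seeds of their own. Only 25 seeds were shared by 2 or more member arms, and 42 also occurred in a miRNA outside the block. The arms of the leading members are shown with their seed in capitals, because they differ in every seed.
miR-6944-5p: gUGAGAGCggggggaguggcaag
miR-6944-3p: uAACUCUUcccuugugcccucag
miR-7046-5p: uGUAGGGUgaggcugggagccagg
miR-7046-3p: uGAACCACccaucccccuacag
miR-7068-5p: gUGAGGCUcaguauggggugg
miR-7068-3p: uCACCCUGgacugacucucag
miR-7015-5p: uCUGUGCAguaggcuguggguuc
miR-7015-3p: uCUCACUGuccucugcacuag
miR-7080-5p: gUAGGAGCuggagguggguuugg
miR-7080-3p: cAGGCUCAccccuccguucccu
The seed of miR-7068-3p recurred in miR-7018-3p and miR-7023-3p, and that of miR-7015-3p in miR-6992-3p. Members with a testable level shared other seeds within the block: miR-6911-5p with miR-7028-5p and miR-7079-5p, miR-7047-5p with miR-6965-5p, and miR-7075-5p with miR-7030-5p and miR-7076-5p. The same held for miR-6914-5p with miR-6904-5p, miR-6945-3p with miR-6927-3p, and miR-7048-3p with miR-7077-3p. It also held for miR-7019-5p with miR-6907-5p and for miR-7070-5p with miR-6927-5p. The seed of miR-6958-5p was that of the minor 3p arms of both miR-30c hairpins.

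Nearly every member was seen, but few were abundant. At least 1 count in some library was found for 198 of the 201 hairpins, and miR-6949, miR-6967-1 and miR-6967-2 had none. The share was 98.5%, against 81.9% of all 1226 hairpins. It was 82.3% of those numbered under 1000, 86.1% from there to under 5000 and 66.8% of those numbered 5000 or more outside the block. All members together took 483434 counts, and 54 had under 100 counts in all libraries. By tissue, 192 members had a count in cortex, 190 in striatum and 193 in hypothalamus, against 182 in liver. Counts in both brain and liver were found for 180 members, in brain alone for 16 and in liver alone for 2 (miR-6924 and miR-7076, with 2 counts each). The numbers by tissue and this split were not computed over all hairpins. miR-6911, miR-7015 and miR-7068 had a count in every library, followed by miR-7046, miR-6988, miR-6948, miR-6946, miR-7052, miR-6944 and miR-6899. A library showed 124 ± 14.1 members (SD) in cortex, 106 ± 27.4 in striatum and 112 ± 15.7 in hypothalamus, against 53.3 ± 6.44 in liver. At a common depth of 1000000 counts the expected number was 85.6 ± 3.46 in cortex, 85.5 ± 7.83 in striatum and 85.1 ± 6.23 in hypothalamus, against 29.5 ± 2.71 in liver, leaving out 7 striatum libraries that were shallower. At matched depth the 3 brain regions thus differed by less than their spread, and liver libraries held fewer members. No such number was computed over all hairpins, so the drop is not shown to be particular to the block. The median level of all hairpins was also lower in liver, at 0.0416 CPM, against 0.252 in cortex, 0.260 in striatum and 0.251 in hypothalamus.

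The summed level of the block was 718 ± 74.3 CPM in cortex (lowest 591, median 709, highest 1179), 1065 ± 162 in striatum (638, 1062, 1349) and 1111 ± 122 in hypothalamus (727, 1109, 1382), against 66.4 ± 7.63 in liver (39.4, 67.1, 83.4). No liver library reached the lowest brain library. A few members held most of it: the top 5 took 64.2% of the members' counts in cortex, 71.6% in striatum and 73.7% in hypothalamus, against 44.5% in liver. A mean of at least 10 CPM was reached by 10 members in cortex, 13 in striatum and 12 in hypothalamus, against 1 in liver. The median member stood at 0.438 CPM in cortex, 0.428 in striatum and 0.438 in hypothalamus, against 0.0588 in liver. Hairpins numbered under 1000 had medians of 3.71, 4.80, 5.40 and 0.219 CPM in the same tissues. Those numbered 5000 or more outside the block had 0.0191, 0.0190, 0.0183 and 0.00725 CPM.

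miR-6944 dominated the block in brain. It lies in Dbn1, which encodes drebrin, an actin-binding protein of dendritic spines. It averaged 249.9 CPM ± 49.3 in cortex (lowest 161, median 241, highest 531), 487 ± 115 in striatum (56.9, 489, 671) and 565 ± 77.1 in hypothalamus (318, 579, 746), against 0.941 ± 0.628 in liver (0, 0.854, 2.78). Every brain library was far above every liver library. miR-6944 alone made up 34.8% of the block's level in cortex, 45.8% in striatum and 50.8% in hypothalamus, against 1.42% in liver. The highest cortex value and the lowest striatum value came from libraries that stood apart, cortex ZT0 replicate 1 and striatum ZT21 replicate 3. Without the libraries that stood apart the cortex ran from 161 to 325 CPM, the striatum from 259 to 671 and the hypothalamus from 318 to 746.

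miR-7046 came next in all 3 brain regions. Its host Rabac1 encodes a prenylated Rab acceptor of the Golgi. It averaged 92.8 CPM ± 26.9 in cortex (lowest 38.5, median 96.8, highest 143), 104 ± 42.4 in striatum (27.6, 105, 192) and 84.5 ± 33.3 in hypothalamus (30.9, 85.3, 147), against 3.12 ± 1.68 in liver (0, 2.99, 7.17). The brain regions overlapped over most of their range, and no liver library reached any of them. miR-7068, in Cherp, a calcium homeostasis and splicing-associated protein, averaged 34.4 CPM ± 8.40 in cortex (24.5, 32.9, 72.4), 72.4 ± 14.5 in striatum (32.0, 71.2, 106) and 73.6 ± 13.2 in hypothalamus (52.3, 72.4, 104), against 5.49 ± 1.52 in liver (1.97, 5.57, 8.55). Its levels in striatum and hypothalamus differed by less than their spread, and the cortex stood lower. miR-7015, in the Arf GTPase-activating protein gene Smap2, led the block in liver with 10.2 CPM ± 2.21 (5.90, 10.1, 17.0). It stood at 52.7 ± 6.74 in cortex (38.0, 51.5, 76.2), 57.3 ± 17.4 in striatum (31.0, 53.9, 114) and 33.3 ± 5.41 in hypothalamus (22.0, 32.6, 45.9), so that hypothalamus was the lowest of the brain regions.

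**Figure D2:**
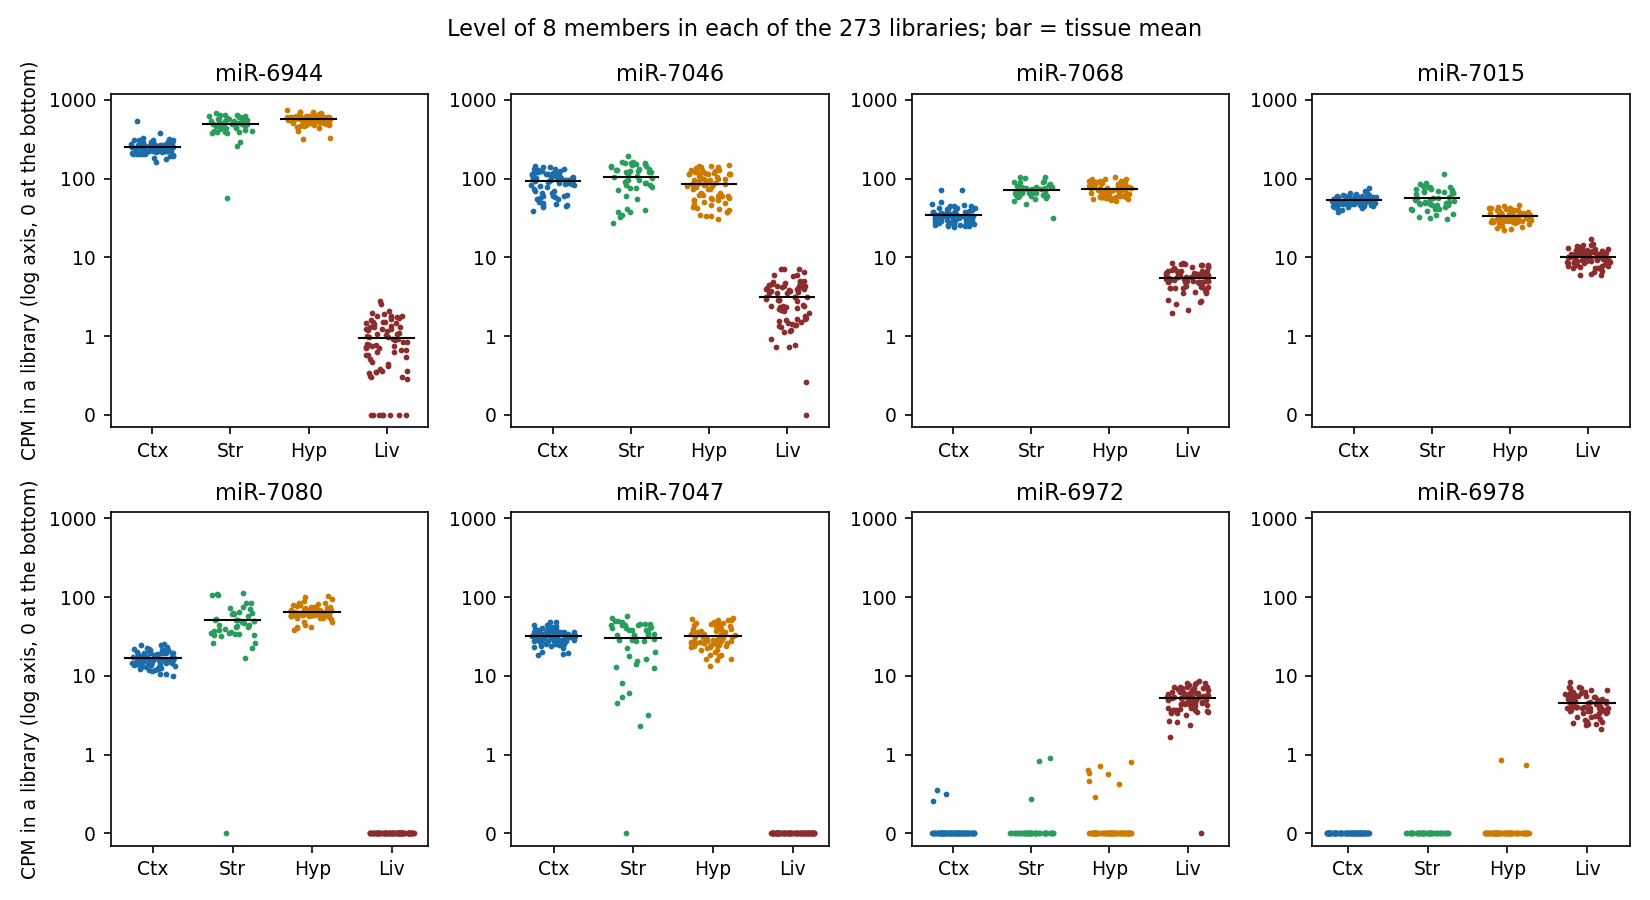
CPM of 8 members in each library (points, log axis with 0 at the bottom) in cortex (Ctx), striatum (Str), hypothalamus (Hyp) and liver (Liv). Black bars are tissue means. miR-7080 and miR-7047 are at 0 in all 77 liver libraries, while miR-6972 and miR-6978 are near or at 0 in brain.

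miR-7080 and miR-7047 were counted throughout the brain and never in liver. miR-7080 lies in Cpne7, which encodes a calcium-dependent membrane-binding copine. It averaged 16.7 CPM ± 3.53 in cortex (10.03, 16.0, 25.03), 51.5 ± 24.4 in striatum (0, 47.6, 114) and 65.2 ± 12.5 in hypothalamus (38.3, 63.8, 103). The highest cortex library was below the lowest hypothalamus library, and the single striatum library at 0 was ZT21 replicate 3, labelled striatum but nearest to cortex in its profile. That value of 0 lay below every cortex library too. miR-7047 averaged 32.1 CPM ± 6.33 in cortex (18.4, 32.0, 48.6), 30.4 ± 15.8 in striatum (0, 33.4, 58.0) and 31.7 ± 9.90 in hypothalamus (13.3, 28.9, 53.8). The 3 regions overlapped over most of their range. With 0 counts in liver, miR-7080 was at least 1304-fold higher in cortex, 3628-fold in striatum and 5078-fold in hypothalamus, each against the limit of 3 counts over all liver libraries. The bounds for miR-7047 were 2425-fold, 2733-fold and 2590-fold. All these bounds use pooled counts over library totals.

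For tissues, a single edgeR quasi-likelihood model held every library, TMM scaling and a term for each ZT. A call needed a Benjamini-Hochberg adjusted p under 0.05 and an absolute log2 ratio of at least 1. The filter on low counts kept 414 hairpins, 33 of them members, and 168 members were not tested in this model. A member could pass through the tissue where it is high, so the counts below describe the 33 and not the block. Against liver, 22 members were higher in cortex, 22 in striatum and 22 in hypothalamus. In each pair 2 members were higher in liver and 9 were not called. Over all tested hairpins 80.7% were called in cortex against liver, 81.9% in striatum and 81.6% in hypothalamus. The members' share of 72.7%, both directions together, was not above that background. Calls higher in the brain region made up 53.4%, 53.1% and 52.4% of all hairpins, beside 22 of 33 members in each pair. Calls higher in liver made up 27.3%, 28.7% and 29.2%, beside 2 of 33 members. The members' median log2 ratio was 1.84 for cortex, 2.30 for striatum and 2.26 for hypothalamus over liver, against 1.31, 1.40 and 1.27 over all hairpins. With members at 0 set at their bound these medians stayed at 1.84, 2.30 and 2.26.

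The scale bears on these numbers. With plain library totals in place of TMM the median of all hairpins moved to 3.23, 3.35 and 3.25, and 31 members were higher in each brain region, with 2 higher in liver. Changes against liver are best read relative to that shift. In plain CPM all 33 tested members but miR-6972 and miR-6978 had a higher mean in each brain region than in liver. Over the whole block 171 of 201 members had a higher mean CPM in cortex than in liver, 175 in striatum and 170 in hypothalamus, or 85.1%, 87.1% and 84.6%. Among all 1226 hairpins, those with no count included, the shares were 59.9%, 59.2% and 59.2%. A library run is meant here as a stretch of library numbers that follow each other and carry the same L code in the labels, whose meaning is not stated. Liver libraries came from 5 runs and those of brain from 10, and a single hypothalamus library sat in a liver run. Run and tissue therefore cannot be told apart for liver. In bulk tissue a lower share of the cells that make a miRNA and less of it per cell cannot be told apart either.

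Higher than liver in all 3 brain regions were 20 members. miR-6944, the most abundant of them in brain, had log2 ratios over liver of 6.13 ± 0.09 (SE) in cortex, 7.05 ± 0.10 in striatum and 7.25 ± 0.10 in hypothalamus (edgeR, adjusted p from 2.574e-194 to 5.001e-178). miR-6896, in Dst, the gene of the cytoskeletal linker dystonin, averaged 10.5 CPM ± 2.42 in cortex, 10.6 ± 4.33 in striatum and 15.1 ± 3.39 in hypothalamus, against 0.0209 ± 0.0956 in liver, with log2 ratios of 6.998, 7.03 and 7.48. miR-7044, in Rasgef1a, a Ras exchange factor gene, had 2116 counts in cortex, 685 in striatum and 1062 in hypothalamus, against 1 in liver. Its cortex to liver ratio was 2032-fold, with a 95% counting interval of 365 to 80249. miR-7000, in the JNK scaffold gene Mapk8ip1, and miR-7066, in Ncan, which encodes the brain matrix proteoglycan neurocan, had no liver count. They were at least 227-fold and 275-fold higher in cortex. These bounds and the fold of miR-7044 are from pooled counts over library totals. They are not on the TMM scale of the log2 ratios. Smaller log2 ratios in cortex than that of miR-6944 belonged to miR-6958 (4.40), miR-6945 in Pdlim7 (3.81) and miR-6928 in the proton pump gene Atp6v0a1 (3.53). Next came miR-6953 in Grina (3.40), miR-7046 (2.99), miR-6913 in Dohh (2.36) and miR-6914 in Ankrd52 (2.11). The rest were miR-7075 in the telomere factor gene Terf2 (2.03), miR-6989 in the kinase gene Map4k2 (1.91), miR-7019 in the mitophagy kinase gene Pink1 (1.84), miR-7006 in Zfp512b (1.67), miR-7052 in Josd2 (1.60) and miR-7070 in Fbxw9 (1.40), with miR-7080 and miR-7047 as given above. With library run added to the model, the call against liver was lost for miR-6914 and miR-7052 in cortex and hypothalamus and for miR-7070 in cortex and striatum.

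**Figure D3:**
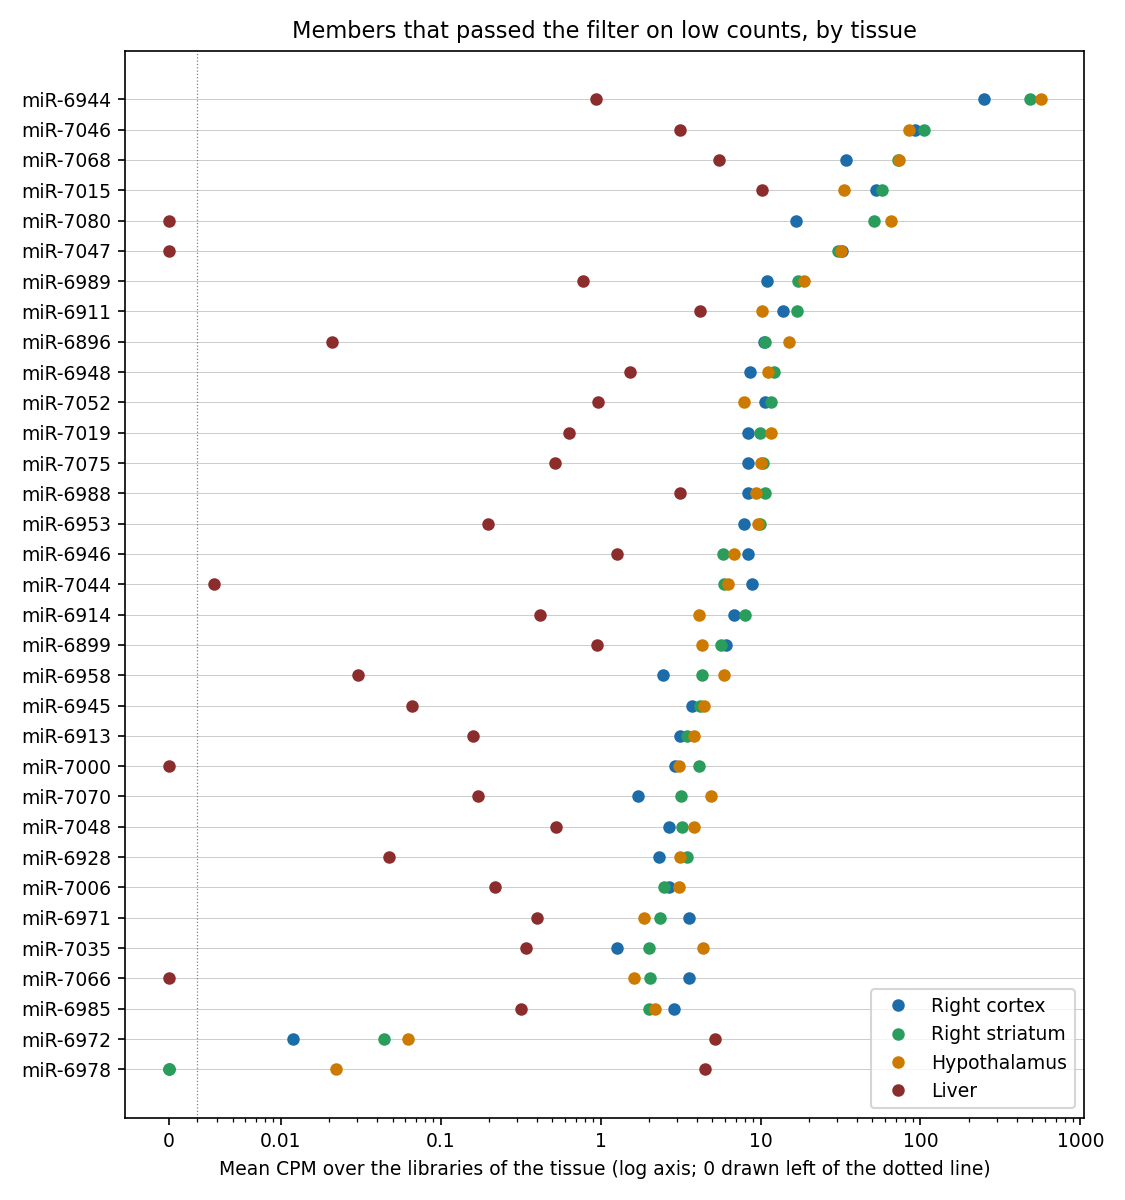
Mean CPM of the 33 members that passed the filter on low counts, in right cortex, right striatum, hypothalamus and liver (log axis, with 0 left of the dotted line). Brain means lie to the right of liver means for all members but miR-6972 and miR-6978 at the bottom, whose points at 0 for cortex and striatum coincide for miR-6978.

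A call in some but not all brain regions was made for 5 members: miR-6948 in Acin1, miR-6971 in Skiv2l, miR-6985 in the cofilin phosphatase gene Ssh3, miR-7035 in Rasa4 and miR-7068. miR-7068 had a log2 ratio over liver of 0.74 in cortex, below the fold asked for, and of 1.80 in striatum and 1.79 in hypothalamus. No call against liver was made for miR-6899 in Klf7, miR-6911 in Dazap1, miR-6946 in the COPII coat gene Sec24c, miR-6988 in the ubiquitin ligase gene Syvn1, miR-7015 in Smap2 and miR-7048 in Dedd2. These 6 depend on the scaling. miR-7015 had log2 ratios of 0.45 in cortex, 0.53 in striatum and -0.26 in hypothalamus with TMM, and 2.37, 2.46 and 1.71 with library totals. miR-6988 had -0.50, -0.14 and -0.39 with TMM and 1.42, 1.80 and 1.59 with library totals. miR-6911 had -0.18, 0.04 and -0.67 with TMM and 1.74, 1.96 and 1.30 with library totals. The direction against liver turned with the scale in all 3 pairs for miR-6988, in cortex and hypothalamus for miR-6911 and in hypothalamus for miR-7015.

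The 2 members higher in liver both lie in complement genes. miR-6972 is in an intron of Cfb (chr17:34857569-34857632, minus strand, 35 bases of intron before it), which encodes complement factor B. miR-6978 is in an intron of C3, the central complement component, and its hairpin is printed above. Hepatocytes are the main source of both proteins in plasma. miR-6972 averaged 5.17 CPM ± 1.62 in liver (lowest 0, median 5.28, highest 8.52), with 1194 counts in 76 of 77 libraries. The liver library at 0 was ZT9 replicate 4, which stood apart. In brain miR-6972 had 3 counts in cortex, 3 in striatum and 10 in hypothalamus. Its liver to cortex ratio was 415-fold (95% counting interval 142 to 2010) and its liver to striatum ratio 171-fold (58.5 to 829). miR-6978 averaged 4.47 CPM ± 1.38 in liver (2.11, 4.16, 8.32), with 1018 counts and every library above 0. It had no count in cortex or striatum and 4 in hypothalamus, all at ZT21 in replicates 4 and 5. It was at least 353-fold higher in liver than in cortex and at least 146-fold higher than in striatum. The folds of both members are from pooled counts over library totals, not on the TMM scale. Library run was not separable from tissue here either. In those 2 hypothalamus libraries miR-122 was at 2.12 and 1.12 CPM, and its part in these counts was not tested. The direction of both members held under all scalings and DESeq2. It also held with each left-out library, but these were all of striatum or hypothalamus, and no liver library was left out. With the run term it held too, in a fit that links liver to brain by 1 hypothalamus library and so cannot separate run from tissue.

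Between brain regions few members differed by the fold asked for. In cortex against hypothalamus 28.3% of all tested hairpins were called, and 9 of 33 members (27.3%): 1 was higher in cortex and 8 in hypothalamus. Over all hairpins 11.1% were higher in cortex and 17.1% in hypothalamus. All 5 tested members that fill their intron were among the 8, whereas 3 of the 28 at other positions were. This split was noticed after the values were seen and was not tested. Among members with more than 10 counts in each of these regions, miR-7080 differed the most, with a log2 ratio of cortex over hypothalamus of -1.91 ± 0.08 (SE, edgeR adjusted p = 6.238e-61). miR-7070 stood at -1.51 ± 0.11, miR-6958 at -1.24 ± 0.09, miR-6944 at -1.12 ± 0.06 and miR-7068 at -1.05 ± 0.06. miR-7070 averaged 1.71 CPM ± 0.857 in cortex and 4.88 ± 1.91 in hypothalamus, and miR-6958 2.45 ± 0.984 and 5.94 ± 2.10. miR-7035, a tailed member in Rasa4, a Ras GTPase-activating protein gene, stood at -1.77 ± 0.13, with 1.26 CPM ± 0.668 in cortex, 2.02 ± 1.65 in striatum and 4.38 ± 1.94 in hypothalamus. The other 2 calls were miR-6972 and miR-6978, which rest on 3 against 10 and 0 against 4 counts. The call of miR-6978 was lost without either hypothalamus library that held its counts, and neither passed the fold in DESeq2. miR-7066 was the single member higher in cortex (log2 ratio 1.11 ± 0.12), with 3.55 CPM ± 1.20 in cortex, 2.02 ± 1.41 in striatum and 1.63 ± 0.989 in hypothalamus. It fell below the fold with DESeq2 (0.81) and with DESeq2-type size factors (0.83).

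In cortex against striatum 14.5% of all hairpins were called, 6.76% higher in cortex and 7.73% higher in striatum. Of the 33 members 2 were called, both higher in striatum: miR-7080 (log2 ratio -1.56 ± 0.09) and miR-7068 (-1.06 ± 0.06). Without the filter on low counts miR-7068 stood at -0.996, just under the fold. No member was higher in cortex by the call, although 5 were at an unadjusted p under 0.05 in edgeR, and DESeq2 gave 0 too. DESeq2 called 4 members higher in striatum, adding miR-6944 (-1.07) and miR-7070 (-1.06). In striatum against hypothalamus 13.5% of all hairpins were called, 5.07% higher in striatum and 8.45% higher in hypothalamus. Of the 33 members 1 was called, miR-7035 (-1.14 ± 0.15), higher in hypothalamus. No member was higher in striatum, with 10 at an unadjusted p under 0.05 in edgeR and 0 called by DESeq2. With the code shared across tissues as a block miR-6914 was called higher in striatum (1.02). Brain regions shared library runs, so the leading differences could be read within a run. miR-7080 was lower in cortex than in hypothalamus in 9 of 9 shared runs, by 3.49-fold to 5.54-fold between run means, and lower than in striatum in 8 of 8. miR-6944 was lower in cortex than in hypothalamus in 9 of 9 runs (2.10-fold to 2.66-fold) and than in striatum in 8 of 8 (1.67-fold to 2.34-fold). miR-7068 was lower in cortex than in hypothalamus in 9 of 9 runs (1.73-fold to 2.30-fold). Without the libraries that stood apart the number of members called was the same in every pair and direction.

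Within a tissue, library run moved with the level of some members. miR-7046 averaged 54.2 CPM ± 13.6 (n = 10) to 119 ± 17.5 (n = 10) over the cortex runs with 3 or more libraries. In striatum its run means went from 42.4 ± 14.1 (n = 5) to 143 ± 13.3 (n = 5), with no overlap between libraries of those 2 runs. In hypothalamus they went from 36.1 ± 6.53 (n = 3) to 125 ± 14.6 (n = 10), again with no overlap. Runs 7, 8 and 9 were the lowest in every brain region that had them. The run means of miR-6944 were closer, from 222 ± 37.6 (n = 11) to 290.2 ± 84.0 (n = 11) in cortex and from 508 ± 92.0 (n = 6) to 631 ± 51.8 (n = 10) in hypothalamus. miR-7047 went from 22.5 ± 4.91 (n = 3) to 45.3 ± 5.04 (n = 10) in hypothalamus. In striatum it went from 18.4 ± 12.3 (n = 10) to 46.8 ± 6.61 (n = 5). miR-7068 went from 57.2 ± 2.58 (n = 10) to 85.5 ± 9.91 (n = 11) in hypothalamus, where runs 7, 8 and 9 were its highest. In each of these the libraries of the lowest and highest run did not overlap, whereas in cortex they overlapped for both members. The part of run in the spread of these members was not tested.

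Time of day was tested per tissue by adding cosine and sine terms of a 24 h period to the edgeR model. Members with enough counts for this test numbered 30 in cortex, 24 in striatum and 24 in hypothalamus, against 7 in liver, and none was called at an adjusted p under 0.05. Over all tested hairpins 0.254% were called in cortex, 0.528% in striatum and 0.263% in hypothalamus, against 4.98% in liver. At an unadjusted p under 0.05 there were 0, 0, 0 and 1 members, beside 16 of 393, 11 of 379, 5 of 380 and 49 of 241 hairpins in all, and DESeq2 called 0 in each tissue. The lowest p was that of miR-7068 in liver, whose fitted peak lay 0.34 ± 0.13 (SE, log2) over its trough at an adjusted p of 0.219. Its liver mean was 6.51 CPM ± 1.68 at ZT18 (n = 6) and 4.70 ± 1.65 at ZT12 (n = 12). In hypothalamus miR-7046 (log2 ratio 0.54, adjusted p = 0.0203) and miR-7068 (0.27, adjusted p = 0.0299) were called when the replicate number was a block. Without the block they had ratios of 0.14 and 0.03 with an adjusted p of 0.999, and adding library run to the model gave no call for either. In hypothalamus the replicate number follows the order of library numbers within a ZT group. The same number can stand for different runs in different ZT groups, so it marks no shared block.

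Means by ZT stayed close. The summed level ran from 707 CPM ± 58.3 (ZT21, n = 6) to 737 ± 37.6 (ZT6, n = 12) in cortex and from 1008 ± 108 (ZT12, n = 9) to 1098 ± 132 (ZT0, n = 7) in striatum. In hypothalamus it ran from 1069 ± 116 (ZT0, n = 12) to 1185 ± 61.8 (ZT18, n = 5), and in liver from 63.1 ± 9.94 (ZT15, n = 6) to 69.5 ± 9.32 (ZT21, n = 6). Each of these differences was within 2 SD of the libraries at either time. miR-6944 ran from 235 CPM ± 13.1 (ZT15) to 265 ± 38.9 (ZT21) in cortex, from 457 ± 58.8 (ZT12) to 527 ± 104 (ZT9) in striatum and from 541 ± 72.4 (ZT15) to 619 ± 78.1 (ZT18) in hypothalamus. In liver miR-6972 ran from 4.25 CPM ± 2.31 (ZT9, n = 11) to 5.88 ± 1.03 (ZT15, n = 6), and miR-6978 from 3.84 ± 1.43 (ZT15) to 5.07 ± 1.61 (ZT18). Detection was as steady: at matched depth the expected number of members per library lay between 82.5 and 86.8 over the cortex ZT groups, between 83.8 and 86.3 in hypothalamus and between 28.6 and 30.4 in liver. In striatum it lay between 74.0, for ZT18 with 1 library deep enough, and 88.5.

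**Figure D4:**
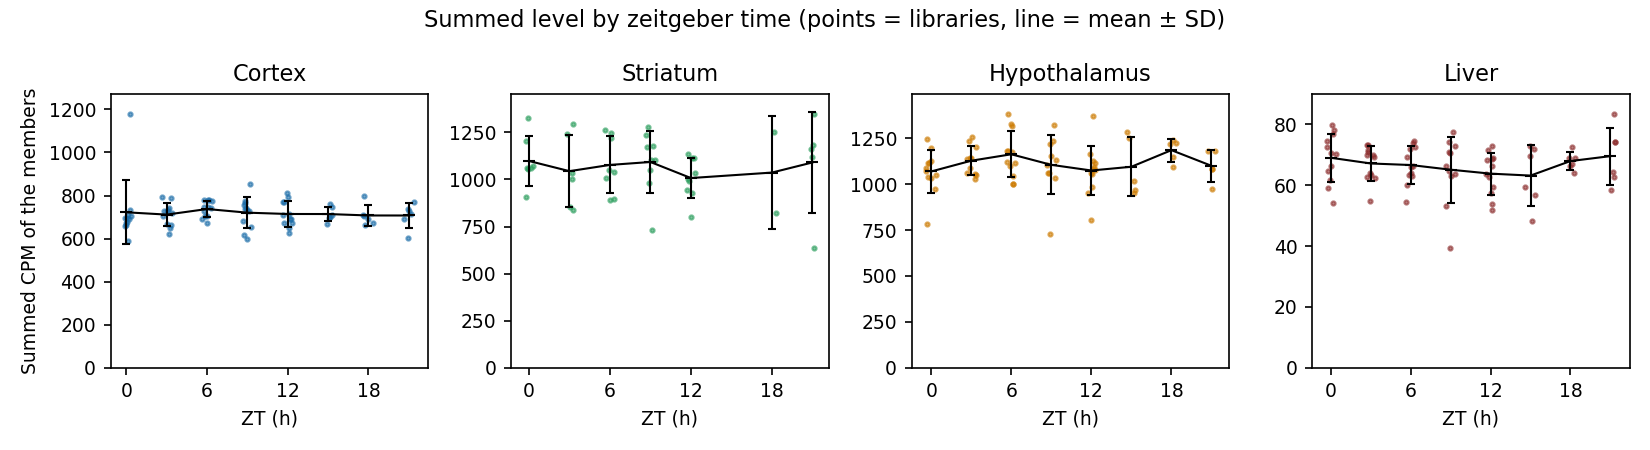
Summed CPM of the 201 hairpins by ZT in cortex, striatum, hypothalamus and liver. Striatum has no library at ZT15. Points are libraries, the line joins the mean of each ZT with its SD, and the vertical axis starts at 0 with its own scale in each panel. The lowest and highest ZT mean of each tissue differ by less than 2 SD of the libraries at either time, and cortex ZT0 replicate 1 is the point at 1179.

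Some members below the filter had distinct tissue patterns, and 6 of them, chosen after their values were seen, are given with counts pooled over a tissue. miR-7055 lies in Slc17a7, the gene of the vesicular glutamate transporter typical of cortical excitatory neurons. It had 304 counts in cortex (1.27 CPM, 95% Poisson interval 1.13 to 1.42), 26 in striatum (0.263, 0.172 to 0.386) and 10 in hypothalamus (0.0605, 0.029 to 0.111), against 0 in liver. In the fit without the filter its log2 ratio was 2.37 for cortex over striatum and 4.49 for cortex over hypothalamus (edgeR adjusted p = 1.316e-15 and 2.993e-34). miR-6982, in the forebrain kinase gene Camk2a, followed the same order with 681, 144, 137 and 0 counts, and log2 ratios of 1.11 for cortex over striatum and 1.86 for cortex over hypothalamus. miR-7056, in Ptpn5, which encodes a phosphatase enriched in striatum, was highest in striatum with 2.74 CPM (2.43 to 3.09), against 1.75 in cortex, 1.07 in hypothalamus and 0 counts in liver. Its log2 ratio was 1.32 for striatum over hypothalamus (adjusted p = 1.031e-11) and -0.51 for cortex over striatum, below the fold. miR-6977, in the receptor phosphatase gene Ptprs, was highest in hypothalamus with 2.73 CPM, and miR-6906, in Spock2, highest in striatum with 2.95 CPM, without passing the fold between brain regions. miR-7088 fills an intron of Mst1, the gene of a growth factor-like protein secreted by the liver. It had 46 counts in liver, 2 in hypothalamus and none in cortex or striatum. Intervals here cover counting error only.

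**Figure D5:**
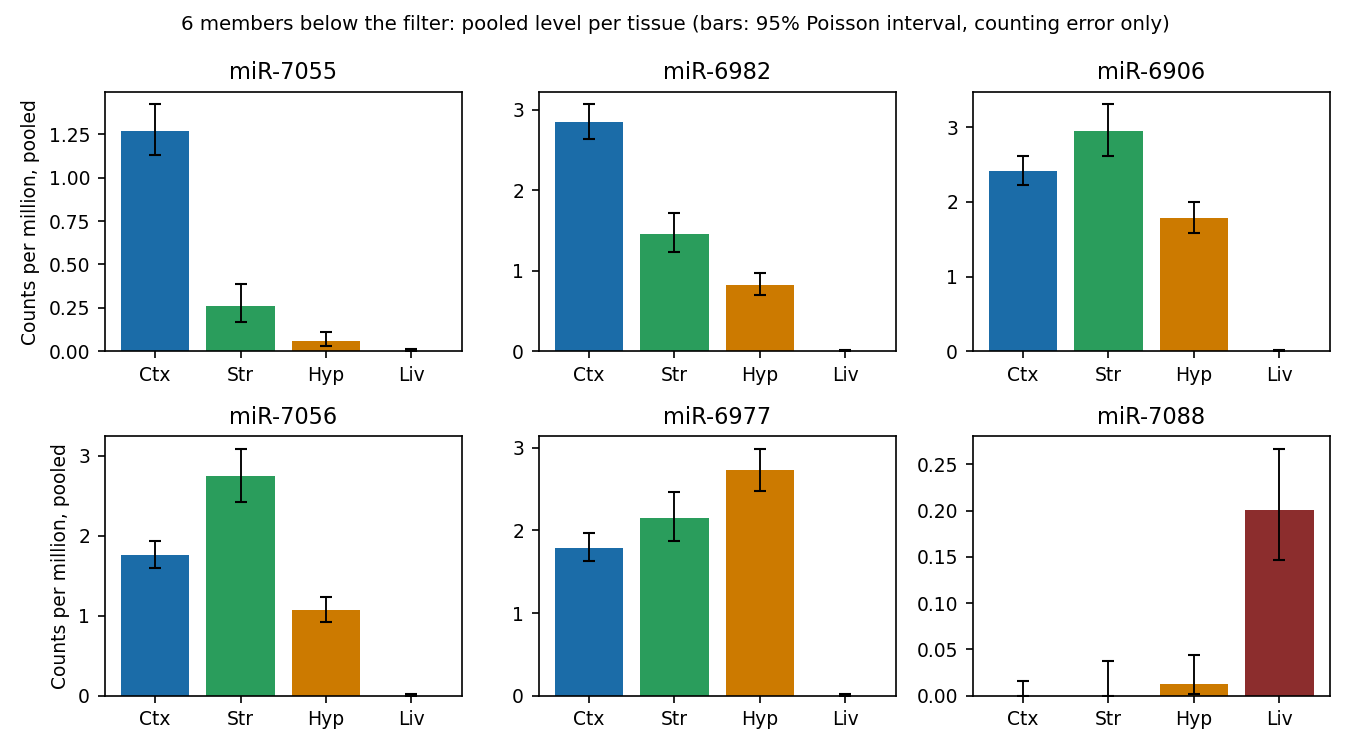
CPM pooled over all libraries of a tissue for 6 members that did not pass the filter on low counts, each panel with its own scale from 0. Error bars are exact 95% Poisson intervals. miR-7055 and miR-6982 are highest in cortex, miR-7056 in striatum and miR-7088 in liver.

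Members that share a host allowed a comparison within a host gene, although a shared transcript was not checked. There were 5 hosts with 2 members each. In Ankrd52, miR-6914 averaged 6.83 CPM in cortex and 0.417 in liver, while miR-6915 averaged 1.76 and 0.0172. In Skiv2l, miR-6971 averaged 3.57 CPM in cortex and miR-6970 0.18. In Arap3, miR-6980 and miR-6981 averaged 0.164 and 0.0351 CPM in cortex and 0.196 and 0.0340 in striatum. They averaged 0.127 and 0.0115 in hypothalamus and 0.174 and 0.0684 in liver. In Cmip, miR-7077 and miR-7078 averaged 0.329 and 0.135 CPM in cortex and 0.0191 and 0.0358 in liver. In Srebf1, the gene of a lipid synthesis factor, miR-6921 and miR-6922 averaged 0.658 and 0.907 CPM in cortex, 0.926 and 1.57 in striatum, 0.693 and 1.59 in hypothalamus, and 0.701 and 0.853 in liver. Known mirtrons outside the block were also higher in brain in plain CPM: miR-877 in Abcf1 averaged 80.9 CPM ± 19.8 in cortex and 3.86 ± 1.32 in liver, miR-3102 in Arhgef17 155 ± 39.6 and 0.971 ± 0.592, and miR-1224 in Vwa5b2 99.1 ± 20.8 and 0.00676 ± 0.0594.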

How the data were processed

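The authors deposited whole-number counts per library and hairpin, with no normalization, for 273 mouse libraries. The submitters' processing notes list the build GRCm38 (mm10), the counter HTSeq (0.10.0) and the aligner STAR (2.7.3a). Trimming, the miRBase release and the treatment of reads with several matches are not given in the sources used here. Per the labels' protocols, libraries were made from an enriched part of the total RNA of frozen tissue. A count joins both arms and could include other short reads of the hairpin's span. From the counts, CPM, detection and pooled levels were computed in Python 3.11.15. Tests used edgeR 4.0.16 (R 4.3.3) with TMM, filterByExpr and Benjamini-Hochberg adjustment over all tested hairpins, and DESeq2 1.42.0 as the alternative. The code was tested on simulated counts. Groups came from the titles. Label codes recurred across tissues, with median correlations of deviations from -0.07 to 0.04, so the block is an alternative only. Named members were all that passed the filter, the 3 highest per tissue and the 10 detected in most libraries. Intervals are exact Poisson at 95%. The members and lists were chosen with earlier results of these data known. Host introns came from GENCODE vM21 and sequences from RefSeq GRCm38.p6. The host of 1 member is not reported here.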

Additional observations from a re-analysis of the deposited data

Results flagged for a closer look

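Within groups of 4 to 10 libraries, 7 values printed by ZT were looked at in 86 combinations of value and group. In 9 of them a library lay farther from the rest of its group than Dixon's 95% limit allows. Chance gives about 1 in 20. In hypothalamus ZT9 replicate 8, which stood apart in its whole profile with miR-375 at 80244 CPM, the summed level was 727 CPM against 1033 to 1324 in the other libraries and miR-6944 was 329 CPM against 503 to 694. In the library labelled striatum ZT21 replicate 3, whose profile was nearest to cortex, miR-6944 was 56.9 CPM against 523 to 671. The lowest cortex library held 161 CPM. miR-6944 was 290.5 CPM in striatum ZT9 replicate 9 against 482 to 625, and 1.73 CPM in liver ZT18 replicate 1 against 0.303 to 0.732. The summed level of cortex ZT18 replicate 3 was 799.8 CPM against 664 to 711. miR-7068 in striatum ZT6 replicate 8 was 103 CPM against 65.3 to 77.7. miR-6978 in liver was 6.65 CPM in ZT15 replicate 5 against 2.82 to 3.82, and 2.44 in ZT21 replicate 5 against 3.86 to 4.69.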

How the results depend on the processing

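Without the filter on low counts 198 members were tested. Then 83 were higher in cortex, 86 in striatum and 84 in hypothalamus against liver, with 35, 32 and 38 higher in liver, so 59.6%, 59.6% and 61.6% were called, against 62.6%, 62.8% and 64.8% of 1004 hairpins. Between brain regions, 16 were higher in cortex and 16 in hypothalamus, 5 in cortex and 5 in striatum, and 8 in striatum and 5 in hypothalamus (16.2%, 5.05% and 6.57%, against 21.6%, 9.56% and 10.5% of all). With the adjusted p alone, without the fold, 11 were higher in cortex and 18 in hypothalamus, 5 in cortex and 16 in striatum, 10 in striatum and 6 in hypothalamus, and 4 and 5 were higher in liver than in cortex and hypothalamus. The shares were 33.3%, 54.5%, 15.2%, 48.5%, 30.3%, 18.2%, 12.1% and 15.2%, against 40.8%, 46.1%, 35.5%, 41.1%, 37.7%, 37.9%, 35.5% and 36.7% of all 414. DESeq2 and DESeq2-type size factors gave 0 members higher in cortex than in hypothalamus and 4 higher in striatum than in cortex. The block by the code shared across tissues gave 1 higher in striatum than in hypothalamus. In the rhythm fit the replicate block gave 2 calls in hypothalamus and 0 elsewhere. With library totals the log2 ratio turned for miR-6911 (1.74 in cortex, 1.30 in hypothalamus), miR-6988 (1.42 in cortex, 1.80 in striatum, 1.59 in hypothalamus) and miR-7015 (1.71 in hypothalamus), whose values with TMM were negative. With library run as a term miR-6985 turned to -0.87 in cortex against liver, and calls against liver were lost for miR-6914, miR-7052, miR-6971 and miR-7070 in cortex (1.57, 1.17, 0.63 and 0.41), for miR-6914, miR-7052 and miR-7035 in hypothalamus (0.82, 0.69 and 1.37) and for miR-7070 in striatum (1.29). That fit links liver to brain by 1 hypothalamus library, and the cause was not tested. Leaving out each of 22 libraries of the groups of 2 to 5 gave 21 to 22 members higher in cortex than in liver, 7 to 8 higher in hypothalamus than in cortex and 0 to 1 higher in striatum than in hypothalamus. The other pair counts did not move, and rhythm calls were 0. Stricter rules for detection lowered the number of members in every tissue. With at least 3 counts in a library, liver showed 76 members, against 151 (cortex), 143 (striatum) and 146 (hypothalamus). With a count in 10% of libraries, liver showed 120, against 169, 167 and 167 for the brain regions in that order. At 1000000 counts a library was expected to show 85.6 members in cortex, 85.1 in hypothalamus and 29.5 in liver. Of the 168 members below the filter, those with a count entered the tissue fit only without the filter.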
